A study of Mus musculus with 18 samples.

Results

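The genes of glycolysis, of lactate and pyruvate handling and of the sugar, lactate and glycerol steps that feed them were followed in poly(A) RNA of the juvenile mouse testis. A gene was taken where its symbol in the deposited tables was 1 of 42 listed names, and all 42 were found, out of 49395 gene symbols with a single value per library in the P14 files and 55186 in the P18 files. They fell into 9 isozymes or copies known from spermatogenic cells (Aldoart1, Aldoart2, Gapdhs, Pgk2, Eno4, Ldhc, Pdha2, Gykl1 and Gk2), 10 somatic counterparts of the same enzyme steps (Aldoa, Aldoc, Gapdh, Pgk1, Eno1, Eno2, Eno3, Ldha, Ldhb and Pdha1) and 23 other enzymes and carriers. All animals were male C57BL/6J mice, either heterozygous (Het, Zfp541+/-) or homozygous (KO, Zfp541-/-) for a mutation of Zfp541, a zinc-finger protein gene of male germ cells. Testicular cells at postnatal day 14 (P14), testicular cells at P18 and spermatocytes at P18 were each sampled from both genotypes, with 3 libraries in each of the 6 groups. The controls therefore carry 1 mutant allele, and wild-type mice are not among the libraries analysed here. How the spermatocytes were isolated is not given in the sources used here, and the labels describe the extraction of testis RNA for every sample. The labels number the replicates 1 to 3 without naming animals, so p-values measure the spread between these libraries.

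Glycolysis splits glucose into pyruvate, which is either reduced to lactate by lactate dehydrogenase or passed to mitochondria through the pyruvate dehydrogenase complex. In the seminiferous tubule Sertoli cells are known to take up glucose and to export lactate through monocarboxylate carriers, and meiotic and later germ cells use that lactate as fuel. Spermatogenic cells also switch on their own isozymes of several steps, and some of these, such as Pgk2 and Pdha2, are intronless retrogene copies of X-linked genes (Pgk1 and Pdha1), which are silenced with the sex chromosomes in pachytene spermatocytes.

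A library rested on 17.96 to 21.12 M reads (megareads) at P14, on 12.81 to 16.95 M in testis at P18 and on 9.26 to 18.31 M for spermatocytes, recovered from the step size of its values. Zfp541 itself had levels of 7.53 to 9.21 in Het and 3.19 to 5.02 in KO at P14, 21.4 to 29.8 and 9.21 to 11.3 in P18 testis and 31.1 to 58.5 and 12.0 to 13.7 in spermatocytes, without overlap between the genotypes of any set. These values count the whole gene, and transcript remained in every KO library. In the spermatocyte libraries the summed level of 8 spermatocyte markers was 1321 to 1700, against 840 to 1187 in P18 testis. That of 8 spermatogonial markers was 261 to 531 against 183 to 278, with overlap, and all 5 erythroid and all 4 endothelial markers stayed under 1 in the spermatocyte libraries. The 10 Sertoli markers summed to 22.2 to 61.3 there, against 927 to 1280 in P18 testis, but 5 peritubular myoid markers summed to 56.6 to 199, against 108 to 154 in P18 testis. Levels are RPKM (P14 testis and spermatocytes) or FPKM (P18 testis) after rescaling, both per length, and are given as mean ± SD of 3 libraries or library by library in the order of replicates 1, 2 and 3. Differences are log2 values ± SE of the level plus 0.5, a scale that understates the change of low genes, with folds computed on that same scale and p-values from limma adjusted by Benjamini-Hochberg over all genes tested in a comparison (threshold 0.05).

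Of the 9 germ-cell isozymes, 6 are single uninterrupted exon blocks in the annotation (Aldoart1, Aldoart2, Pgk2, Pdha2, Gykl1 and Gk2), while none of the 10 somatic counterparts and none of the 23 other members is. In GRCm38, Pgk2 (ENSMUSG00000031233.6) lies on chromosome 17 at 40207015 to 40208640 and Pdha2 (ENSMUSG00000047674.2) on chromosome 3 at 141210004 to 141212355, both on the minus strand, whereas Pgk1 (ENSMUSG00000062070.12, 106187100 to 106203699) and Pdha1 (ENSMUSG00000031299.10, 160122209 to 160138413) lie on the X chromosome. Ldha (ENSMUSG00000063229.15, 46841475 to 46855627) and Ldhc (ENSMUSG00000030851.15, 46861203 to 46878142) are neighbours on the plus strand of chromosome 7. Fbp1 (ENSMUSG00000069805.10) is on chromosome 13 at 62864753 to 62888282 and Pgam2 (ENSMUSG00000020475.3) on chromosome 11 at 5801640 to 5803733. RefSeq promoters of build GRCm38.p6 were matched by symbol for 37 of the 42 members. The 250 bases before the annotated start are printed for 5 genes with some of the lowest KO levels relative to Het below, 5′ to 3′ on the gene's own strand, so that the neighbours Ldhc and Ldha can be set beside genes of other chromosomes. Their windows are chr7:46861013-46861262 (plus), chr7:46845554-46845803 (plus), chr17:40208610-40208859 (minus), chr11:5803797-5804046 (minus) and chr13:62888283-62888532 (minus). Capitals mark matches, on either strand, of 4 short motifs: TGACGT (cyclic AMP response element half-site, CRE), CAGTTG (A-MYB), GTTGCC (RFX) and GGGCGG (GC box).
Ldhc: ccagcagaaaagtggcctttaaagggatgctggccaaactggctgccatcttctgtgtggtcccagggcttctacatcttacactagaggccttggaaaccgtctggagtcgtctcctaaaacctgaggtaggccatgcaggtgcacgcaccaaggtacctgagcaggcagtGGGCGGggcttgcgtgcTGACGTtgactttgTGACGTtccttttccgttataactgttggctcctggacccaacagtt
Ldha: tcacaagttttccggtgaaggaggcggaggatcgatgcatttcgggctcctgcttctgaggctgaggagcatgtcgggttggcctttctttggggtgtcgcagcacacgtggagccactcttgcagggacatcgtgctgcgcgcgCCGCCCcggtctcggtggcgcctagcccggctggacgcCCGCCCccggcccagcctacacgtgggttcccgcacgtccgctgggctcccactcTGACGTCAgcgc
Pgk2: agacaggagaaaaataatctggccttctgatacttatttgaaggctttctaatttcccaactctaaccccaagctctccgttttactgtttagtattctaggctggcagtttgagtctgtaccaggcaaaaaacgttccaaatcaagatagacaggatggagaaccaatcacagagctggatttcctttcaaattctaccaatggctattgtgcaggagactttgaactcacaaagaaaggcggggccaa
Pgam2: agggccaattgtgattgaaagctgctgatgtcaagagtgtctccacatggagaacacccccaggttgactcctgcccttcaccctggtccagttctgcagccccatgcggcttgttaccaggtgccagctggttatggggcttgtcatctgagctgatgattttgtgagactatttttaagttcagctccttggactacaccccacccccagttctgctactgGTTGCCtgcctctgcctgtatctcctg
Fbp1: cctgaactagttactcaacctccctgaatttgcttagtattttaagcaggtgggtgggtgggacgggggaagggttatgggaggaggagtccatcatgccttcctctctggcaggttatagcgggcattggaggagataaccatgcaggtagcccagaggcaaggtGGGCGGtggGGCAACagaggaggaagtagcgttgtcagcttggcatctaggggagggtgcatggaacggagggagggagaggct
The printed Ldhc window held CRE letters at 61 and at 47 bases before the start and a GC box at 78 bases. The printed Ldha window held the CRE letters in both orientations, overlapping as a palindrome at 12 and 10 bases before the start, and GC boxes at 105 and 67 bases. RefSeq gives each of these 2 genes another start, and the windows before those (chr7:46861237-46861486 and chr7:46846832-46847081) held none of the 4 motifs. The Pgam2 window held RFX letters at 27 bases, the Fbp1 window RFX letters at 75 and a GC box at 84 bases, and the Pgk2 window none of the 4. CRE letters were in 6.47% of all 32851 RefSeq promoter windows of this length and in a window of 5 of the 37 members (Hk2, Ldha, Ldhc, Pdhb and Slc16a3). RFX letters were in 10.43% of windows and in 8 members, A-MYB letters in 11.14% and in 4 members, and GC boxes in 32.74% and in 18 members. A member may have several windows, so these shares are a description of the letters only.

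In Het libraries the members changed places with age and cell type. At P14 the highest member was Ldhb, the heart-type lactate dehydrogenase subunit, at 183 ± 6.81, ahead of Bsg (basigin, the chaperone of lactate carriers) at 114 ± 3.40, Pgam1 (phosphoglycerate mutase) at 96.4 ± 3.90 and Pkm (pyruvate kinase) at 76.8 ± 6.26, with no overlap between neighbours in this order. In P18 testis the testis lactate dehydrogenase Ldhc came first, at 653, 407 and 256 in the 3 Het libraries. Bsg (171 to 196) and Ldhb (154 to 203) followed and overlapped each other, as did Pgam2, the muscle-type mutase (61.5 to 163), and the glucose carrier Slc2a3 (58.7 to 153). In Het spermatocytes the order was Ldhc at 630.2, 529.8 and 1295, Slc2a3 at 163 to 404, Bsg at 194 to 263, Pgam2 at 117 to 288, Ldha at 90.2 to 231 and the gluconeogenic enzyme Fbp1 (fructose-1,6-bisphosphatase) at 89.4 to 226. Ldhc did not overlap Slc2a3, but each later member of that order overlapped its neighbour. In KO spermatocytes the first place went to Bsg at 186 ± 4.43, with Pdhb (42.8 ± 1.24), Dld (37.9 ± 0.781), Slc16a1 (35.7 ± 2.77), Gpi1 (34.6 ± 1.97) and Pkm (34.5 ± 2.82) after it.

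**Figure D1:**
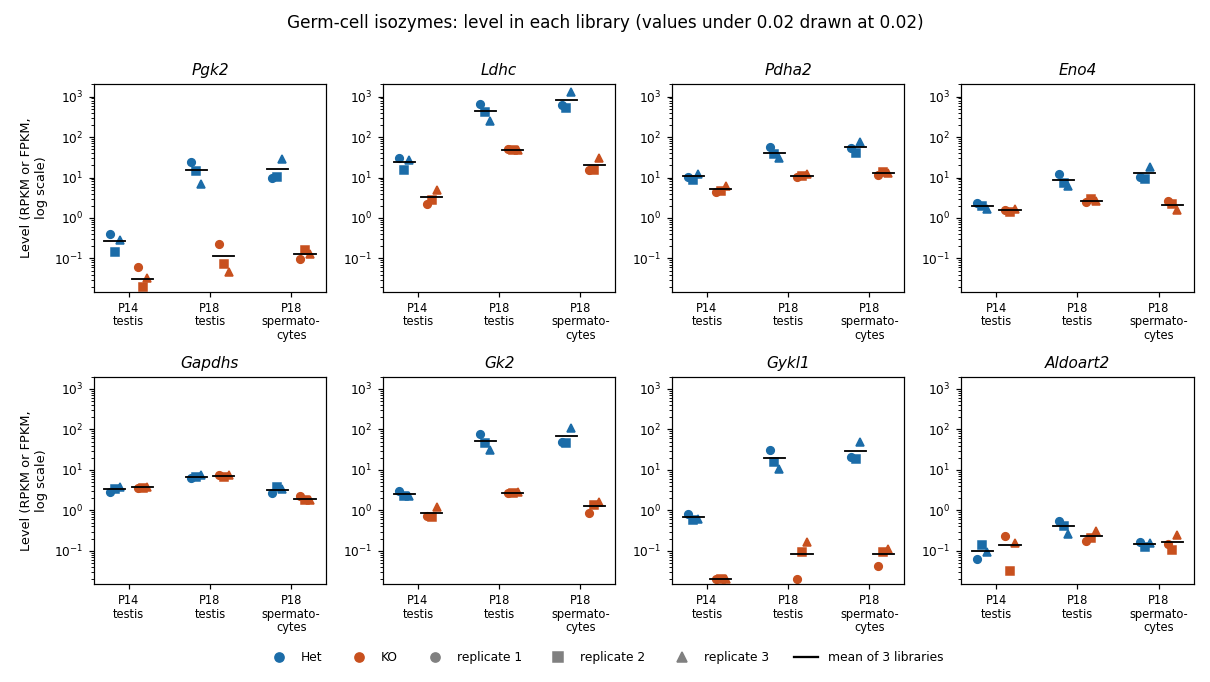
Level in each library of 8 of the germ-cell isozymes (y axis, RPKM or FPKM after rescaling, log scale, values under 0.02 drawn at 0.02) in the 3 sets (x axis); colours are genotypes, symbols are replicate numbers and bars are means of 3 libraries. Pgk2, Ldhc, Gk2 and Gykl1 of KO lie far under Het in both P18 sets, while Gapdhs of P18 testis overlaps (6.27 to 7.34 in Het, 6.63 to 7.43 in KO).

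Between P14 and P18 in Het testis all 5 germ-cell isozymes tested rose, while 3 of 8 somatic counterparts rose and 4 fell. Comparisons of age were limited to genes counted on 1 gene model in both deposits, which left out 10 members (Pfkl, Pfkm, Pfkp, Aldoa, Pgk2, Pgam1, Pdhb, Dld, Fbp2 and Gykl1). Of 28 members tested 17 were higher and 9 lower at P18, against 31.5% and 30.1% of all 15851 genes (61.6% in both directions), and the unit differed between the ages as well (RPKM and FPKM). At P18 16 members lay wholly above P14 and 9 wholly below, against 33.9% and 33.0% of all genes. Of the germ-cell isozymes Ldhc rose by 3.89 ± 0.38 (adjusted p = 7.5e-06), the glycerol kinase copy Gk2 by 3.81 ± 0.28, Pdha2 by 1.67 ± 0.21, the sperm-flagellum enolase Eno4 by 1.62 ± 0.20 and Gapdhs by 0.75 ± 0.10. Larger rises stood among other members, with Pgam2 up 4.92 ± 0.33, from 2.62 ± 0.386 to 101 ± 49.6, and Fbp1 up 4.36 ± 0.34, from 1.96 ± 0.62 to 54.3 ± 28.5. The fructose carrier Slc2a5 (3.68 ± 0.31), Slc2a3 (3.32 ± 0.29), the high-affinity monocarboxylate carrier Slc16a7 (1.63 ± 0.27) and Dlat, the E2 subunit of pyruvate dehydrogenase (0.89 ± 0.11), rose, as did Ldha, the muscle-type subunit, by 2.37 ± 0.27, Eno3 by 1.57 ± 0.18 and Gapdh by 0.95 ± 0.07. The X-linked Pgk1 fell from 24.6 ± 1.16 to 15.0 ± 1.50 (−0.70 ± 0.09, adjusted p = 5.69e-05) and the X-linked Pdha1 from 9.45 ± 0.448 to 6.22 ± 0.349 (−0.57 ± 0.08, adjusted p = 0.000157). Ldhb (−0.24 ± 0.07, adjusted p = 0.0153) and Eno1 (−0.17 ± 0.07, adjusted p = 0.048) passed as lower, and Aldoc did not pass (−0.29 ± 0.14, adjusted p = 0.0844). On the values as deposited the split was 17 higher and 3 lower, and without P14 Het replicate 1 or 2 it had 5 lower. Ldhb lost its call on the values as deposited (limma adjusted p = 0.485) and without P14 Het replicate 1 (0.0753) or 2 (0.0676), and Eno1 lost its call in most of the fits that left out 1 library (adjusted p up to 0.239).

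Het spermatocytes had lower levels than Het testis of the same age for 5 of 9 somatic isozymes, and 3 of 7 germ-cell isozymes were higher and 1 lower. Of 37 members tested 17 were higher and 12 lower in spermatocytes, against 29.4% and 30.0% of 19882 genes (59.4% in both directions). The libraries did not overlap for 12 members in either direction, against 30.3% and 31.3% of all genes, and the 2 sets differed in unit (RPKM against FPKM). Ldhb was 154, 183 and 203 in the Het testis libraries and 8.68, 8.04 and 6.31 in the Het spermatocytes. No other member was lower by as much: Ldhb differed by −4.28 ± 0.26 (adjusted p = 3.68e-07), followed among the somatic isozymes by Pgk1 (−2.19 ± 0.11), Gapdh (−1.87 ± 0.11), Eno1 (−1.76 ± 0.12) and Aldoa (−1.30 ± 0.11). Pgam1 (−2.46 ± 0.13), the liver-type phosphofructokinase Pfkl (−2.38 ± 0.16), hexokinase Hk2 (−2.29 ± 0.15), the lactate exporter Slc16a3 (−1.96 ± 0.19) and Pkm (−1.55 ± 0.10) were lower too. Of the germ-cell isozymes Ldhc (1.07 ± 0.38, adjusted p = 0.0301), Eno4 (0.69 ± 0.26, adjusted p = 0.0428) and Pdha2 (0.65 ± 0.21, adjusted p = 0.0221) passed as higher, although the libraries of the 2 fractions overlapped for each. Gapdhs, the glyceraldehyde-3-phosphate dehydrogenase of the sperm tail, went the other way, from 6.22 ± 0.78 in testis to 3.41 ± 0.595 (−0.79 ± 0.14, adjusted p = 0.00051). Pgk2 (0.24 ± 0.44, adjusted p = 0.661), Gykl1 (0.76 ± 0.38, adjusted p = 0.103) and Gk2 (0.58 ± 0.35, adjusted p = 0.175) did not pass, nor did Ldha (0.97 ± 0.40, adjusted p = 0.0542) or Pdha1 (−0.29 ± 0.14, adjusted p = 0.0849). Slc2a3 (1.47 ± 0.38), Aldoc (0.55 ± 0.17) and Eno3 (0.53 ± 0.16) were higher, and the other 11 carriers and enzymes that passed as higher differed by 0.45 (Dld) to 1.45 (Fbp1). On the values as deposited the split was 8 higher and 14 lower, with the median of all genes moved by −0.20. Leaving out testis Het replicate 2 or 3 or spermatocyte Het replicate 3 left 9, 7 and 8 higher members, and the calls of Ldhc, Eno4 and Pdha2 were lost in each of these (adjusted p 0.062 to 0.158). Ldhc, Eno4, Pdha2, Aldoc and Eno3 lost their calls on the values as deposited (limma adjusted p 0.0557 to 0.115). Aldoc also lost its call without testis Het replicate 1 (0.0501) or 2 (0.062), and Eno3 without testis Het replicate 3 (0.0649). Eno4 lost its call as well without any 1 testis KO library (0.0547 to 0.056) or spermatocyte KO replicate 2 (0.0549).

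At P14, when the first wave of germ cells has only just reached pachytene, 1 member passed the test between KO and Het. Fbp1 stood at 2.48, 1.40 and 1.58 in Het and at 0.0843, 0.0307 and 0.217 in KO. The KO libraries hold 3, 1 and 7 reads of it. Fbp1 fell by 1.91 ± 0.22 on the log2 scale (adjusted p = 0.0403), 1 of 34 members tested, against 0.164% of all 17707 genes called (0.0113% higher and 0.152% lower), and 11 of the 34 had an unadjusted p under 0.05. The call was lost with a pseudocount of 1 (adjusted p = 0.0506) or 0.1 (0.085, with a difference of −3.24) and without KO replicate 1 (0.148) or 2 (0.19), and with any 1 of the Het libraries left out the gene no longer met the filter of a value of 1 in 3 libraries.

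Ldhc at P14 was 30.5, 15.2 and 27.6 in Het and 2.27, 2.81 and 5.04 in KO. Every Het library stood above every KO library, by 2.69 ± 0.34 on the log2 scale, and limma gave an adjusted p of 0.0748. Ldhc passed in no alternative fit, with limma adjusted p of 0.0508 to 0.477 when 1 library was left out. Gk2 was 2.96, 2.32 and 2.31 in Het and 0.738, 0.695 and 1.18 in KO (−1.15 ± 0.17, adjusted p = 0.0748), and it passed without KO replicate 3 (adjusted p = 0.0365) and with voom on recovered reads (0.00292). Pdha2, the germ-cell E1 alpha subunit of pyruvate dehydrogenase, was 10.5, 8.85 and 12.5 against 4.52, 4.74 and 6.23 (−0.97 ± 0.16, adjusted p = 0.10), and passed with voom (0.00465). Gk2 and Pdha2 missed the threshold in all other alternative fits. None of these 3 overlapped between genotypes. Eno4 (−0.30 ± 0.12, adjusted p = 0.529) did not overlap either, and Gapdhs (0.14 ± 0.10, adjusted p = 0.718) did. The other 4 germ-cell copies were under the filter: Pgk2 (at most 0.392), Gykl1 (0.568 to 0.836 in Het, listed at 0 in all 3 KO libraries), Aldoart1 (at most 0.688) and Aldoart2 (at most 0.231). Of the 9 somatic counterparts tested at P14 none passed, with differences from −0.37 (Eno3, adjusted p = 0.578) and −0.33 (Ldha, 0.542) to 0.20 (Gapdh, 0.444). The others were Aldoa 0.10, Aldoc 0.06, Pgk1 0.00, Eno1 0.11, Ldhb 0.08 and Pdha1 −0.01. Of the other members Slc2a3 was 9.62, 6.03 and 8.27 in Het and 3.57, 3.29 and 3.74 in KO (−1.05 ± 0.16, adjusted p = 0.0815). Dlat (−0.33 ± 0.06, 0.116), Slc2a5 (−0.82 ± 0.22, 0.298), Pdhb (−0.18 ± 0.05, 0.308) and Pgam2 (−0.73 ± 0.22, 0.365) were lower in every KO library as well without passing, and the remaining members lay between −0.12 (Dld) and 0.13 (Gpi1). Late spermatocyte markers summed to 98.9 to 120.0 in Het and 58.7 to 81.5 in KO, with 1 of 4 tested passing as lower, and their part in these differences was not tested. Among 34 members tested 12 had all KO libraries below all Het libraries and 4 above, against 7.66% and 8.76% of all genes tested. Fbp1 and Slc2a5 were under 1 in all KO libraries and met the filter only through Het, so they could enter this count only as lower. The median of the tested members was −0.01, beside 0.02 over all genes.

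In P18 testis 6 of 7 germ-cell isozymes tested fell in KO, against 17.0% of all genes tested (23.6% called in either direction). Pgk2 and Gykl1, both among the 6, were under 1 in all KO libraries. They met the filter only through Het and could enter this count only as lower. Pgk2, the phosphoglycerate kinase that takes over in meiosis, was 24.6, 14.6 and 7.08 in Het and 0.222, 0.0710 and 0.0463 in KO, the latter from 5, 2 and 1 reads. Het replicate 1 was highest and replicate 3 lowest, and no KO library came near any of them. Pgk2 fell by 4.55 ± 0.42 (adjusted p = 0.00386), a size that depends on the pseudocount (−6.10 with 0.1 and −3.73 with 1). Ldhc was 653, 407 and 256 in Het and 50.4, 49.0 and 46.9 in KO. It fell by 3.05 ± 0.32 (adjusted p = 0.00412), 8.30-fold, and went from the first of the members in Het to the sixth in KO. Gk2 was 77.6, 45.4 and 30.6 in Het and 2.61, 2.70 and 2.88 in KO, a fall of 3.90 ± 0.31 (adjusted p = 0.0038). The second glycerol kinase copy, Gykl1, was 31.5, 16.1 and 10.5 in Het and 0, 0.0930 and 0.162 in KO, from 0, 3 and 4 reads. It fell by 4.95 ± 0.38 (adjusted p = 0.0038), again with a size that depends on the pseudocount (−6.68 and −4.10). Pdha2 fell from 41.1 ± 12.8 to 11.2 ± 0.81 (−1.79 ± 0.21, adjusted p = 0.00485) and Eno4 from 8.62 ± 3.15 to 2.64 ± 0.232 (−1.49 ± 0.24, adjusted p = 0.0097). Gapdhs did not pass (0.07 ± 0.09, 95% interval −0.14 to 0.28, adjusted p = 0.56), and the aldolase copies stayed under the filter, Aldoart2 at 0.535, 0.414 and 0.260 in Het and 0.174, 0.209 and 0.318 in KO, and Aldoart1 at or below 0.183. In bulk RNA a loss of late spermatocytes and a lower RNA level per cell cannot be told apart. All 6 late spermatocyte markers fell in the same comparison, with a summed level of 354 to 641 in Het and 134 to 155 in KO. Ccna1 and Adam3 of these were under 1 in all KO libraries. They met the filter only through Het and could count only as lower. Of 8 general spermatocyte markers 3 fell (sums of 1078 to 1187 and 840 to 1001), and the spermatid markers summed to 6.54 to 9.36 and 5.01 to 5.78, with 1 of 2 tested lower. Among the spermatid markers only Spaca1 reached 1 in a KO library, so any other tested could count only as lower. The part of these cell types in the results was not tested.

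The somatic counterparts went in both directions in P18 testis. Gapdh was 70.9, 79.2 and 85.2 in Het and 95.9, 105 and 101 in KO, and Pgk1 14.1, 17.4 and 16.9 in Het and 21.0, 20.5 and 20.2 in KO. All KO libraries were above all Het libraries for both. Gapdh rose by 0.36 ± 0.08 (adjusted p = 0.0259), Pgk1 by 0.35 ± 0.09 (0.0358), Pdha1 by 0.27 ± 0.07 (0.0398) and Aldoa, the ubiquitous aldolase, by 0.22 ± 0.06 (0.0462). Ldhb was higher in each KO library as well, at 232, 223 and 228 against 154, 183 and 203, and missed the threshold (0.35 ± 0.10, adjusted p = 0.0539), although it passed on the values as deposited (0.0412), with median-of-ratios scaling (0.0482) and with voom on recovered reads (0.0203). Ldha and Eno3 fell. Ldha was 116, 78.9 and 47.0 in Het and 15.8, 16.5 and 16.6 in KO (−2.18 ± 0.30, adjusted p = 0.00707). Eno3, the muscle-type enolase, went from 41.9 ± 8.30 to 24.4 ± 0.914 (−0.75 ± 0.14, adjusted p = 0.0166). Eno1 (0.07 ± 0.06, adjusted p = 0.365) and Aldoc (0.17 ± 0.17, 0.509) did not pass, and Eno2 stayed under the filter at or below 0.56. Reads of several members could have come from other annotated genes, such as processed copies. Of the 50-base words of Pgk1 transcripts 53.88% occur in other annotated genes. The figure was 36.16% for Pgam1, 25.99% for Eno1, 25.77% for Pkm, 25.12% for Gapdh and 20.99% for Ldhb. It was 15.84% for Gpi1 and 12.88% for Pdha1, and 0.00% for Pgk2, Ldhc, Pdha2 and Pgam2. Members that fell were not all free of such words, with 11.36% for Pdhb, 9.26% for Ldha and 8.83% for Pfkm. Among the germ-cell isozymes Aldoart1 had 5.79%, Gapdhs 4.56% and Eno4 4.43%. Another row of the Aldoa symbol, matched by its length to ENSMUSG00000114515.2 (chromosome 7, 126800790 to 126809108, directly upstream of Aldoa), was 10.2, 7.47 and 5.93 in Het and 4.16, 4.26 and 4.52 in KO and fell by 0.77 ± 0.18 (adjusted p = 0.0317), against the direction of the main Aldoa row.

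Among the other members of P18 testis, 10 fell and 5 rose, and 3 sugar and monocarboxylate carriers were among the falls and 2 among the rises. Slc2a3, the high-affinity glucose carrier, was 153, 97.2 and 58.7 in Het and 9.72, 9.71 and 9.67 in KO. The 3 KO libraries had an SD of 0.0252, and Slc2a3 fell by 3.23 ± 0.32 (adjusted p = 0.00387), 9.41-fold. Slc2a5 fell from 28.6 ± 13.8 to 2.33 ± 0.275 (−3.26 ± 0.33) and Slc16a7 from 2.47 ± 1.25 to 0.354 ± 0.0692 (−1.71 ± 0.33, adjusted p = 0.0161). The ubiquitous glucose carrier Slc2a1 rose by 0.31 ± 0.08 (adjusted p = 0.0429) and the lactate carrier Slc16a1 by 0.33 ± 0.07 (0.0243), while Slc16a3 (0.18 ± 0.08, 0.152) and Bsg (−0.20 ± 0.07, 0.092) did not pass. Of the enzymes, Pgam2 was 163, 99.9 and 61.5 in Het and 4.47, 5.77 and 3.85 in KO, a 19.6-fold fall (−4.29 ± 0.35, adjusted p = 0.0038). Fbp1 was 88.8, 55.0 and 30.0 in Het and 3.65, 3.46 and 2.87 in KO (−3.80 ± 0.37, adjusted p = 0.00387). Neither gene overlapped between genotypes. The platelet-type and muscle-type phosphofructokinases Pfkp (−1.34 ± 0.26, adjusted p = 0.0176) and Pfkm (−0.79 ± 0.15, 0.0154) fell, and the liver-type Pfkl rose (0.38 ± 0.07, 0.0166). Dlat (−0.84 ± 0.13, 0.00815), hexokinase Hk1 (−0.76 ± 0.21, 0.0445, a call lost in 5 of the 6 fits without 1 library, at 0.0932 to 0.129, and with no filter, at 0.0858) and Pdhb, the E1 beta subunit (−0.41 ± 0.06, 0.0065), fell, and Gpi1 (glucose-6-phosphate isomerase, 0.37 ± 0.08, 0.019) and Pkm (0.33 ± 0.07, 0.0204) rose. Hk2 (0.31 ± 0.09, 0.0528), Pgam1 (0.37 ± 0.11, 0.0564), Tpi1 (−0.30 ± 0.15, 0.185) and Dld (−0.17 ± 0.08, 0.149) did not pass, and Hk3 and Fbp2 were under the filter.

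In all, 9 of 37 members tested in P18 testis were higher and 18 lower in KO, against 6.62% and 17.0% of 18787 genes tested, with a median of −0.30 beside 0.04 over all genes. Pgk2, Gykl1 and Slc16a7 met the filter only through their Het libraries here and in spermatocytes, so these counts describe the members tested and are no measure of how far members in general differ. The KO libraries lay wholly above Het for 13 members and wholly below for 19, against 23.0% and 25.5% of all genes. The 9 rises, of 0.22 to 0.38, were 0.16 (Aldoa) to 0.41 (Gpi1) over the fits with 1 library left out, but their calls depended on single libraries: none passed when KO replicate 2 or 3 was left out or when Het replicate 2 was, and 3 passed without KO replicate 1. Of the 18 falls 8 passed without Het replicate 2, when Ldha (adjusted p = 0.0503), Eno4 (0.0529), Dlat, Pfkp, Pfkm, Eno3 and Hk1 missed the threshold and Pgk2, Gykl1 and Slc16a7 no longer met the filter. Pfkp, Pfkm and Eno3 (limma adjusted p 0.0533 to 0.0723) and Slc16a7 (0.059 to 0.0611) also missed the threshold without any 1 of the KO libraries. On recovered reads with voom, Pgk2 (0.0787) and Gykl1 (0.0753) missed it as well. In the same testes 10 Sertoli markers summed to 927 to 1150 in Het and 1210 to 1280 in KO (2 of 10 passed as higher), 7 macrophage markers to 40.1 to 47.8 and 56.8 to 66.2 (5 higher), and 8 spermatogonial markers to 183 to 229.6 and 249 to 278 (2 of 7 tested higher). These sums moved with the somatic isozymes that rose, and their part in the rises was not tested.

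**Figure D2:**
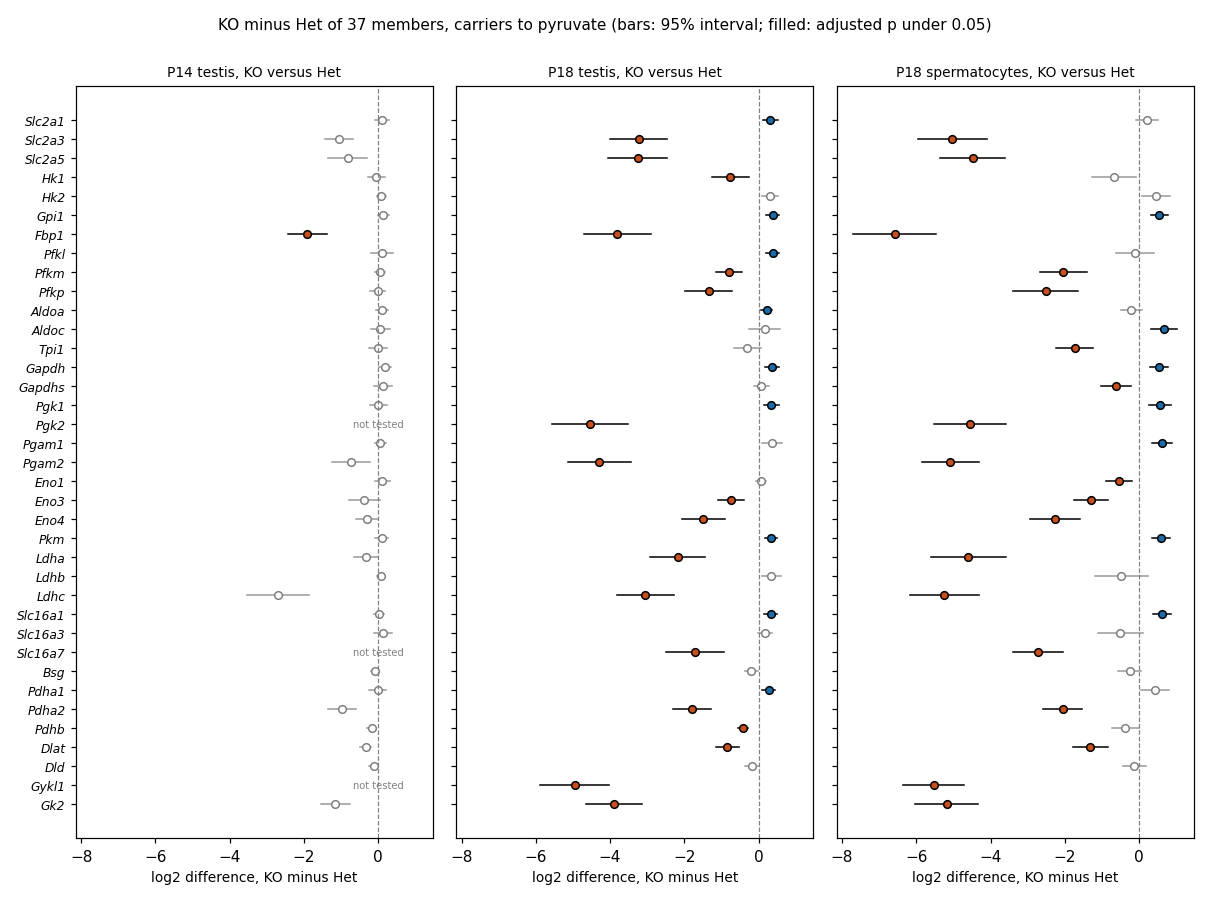
KO minus Het (x axis, log2 of the level plus 0.5) for the 37 members tested in at least 1 set, ordered from carriers to pyruvate (y axis), in P14 testis, P18 testis and P18 spermatocytes; bars are 95% intervals and filled points have an adjusted p under 0.05. The large negative values of Pgk2, Pgam2, Fbp1, Ldhc, Slc2a3 and Gk2 at P18 stand beside small positive values of Gapdh, Pgk1, Pkm and Gpi1.

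In spermatocytes isolated at P18 all 7 germ-cell isozymes tested fell in KO, against 21.5% of all genes tested (35.7% called in either direction). Pgk2 and Gykl1 were under 1 in all KO libraries here too. They met the filter only through Het and could enter this count only as lower. Ldhc was 630.2, 529.8 and 1295 in Het and 15.4, 15.8 and 30.0 in KO. Het replicate 3 was the highest, and every KO library was below every Het library. Ldhc fell by 5.25 ± 0.39 (adjusted p = 0.00038), 38.1-fold, with a difference of −4.90 without Het replicate 3. Pgk2 was 9.51, 10.2 and 29.4 in Het and 0.0982, 0.161 and 0.127 in KO, from 2, 3 and 3 reads. It fell by 4.55 ± 0.41 (adjusted p = 0.00063), and by 5.98 or 3.76 with the other pseudocounts. Gk2 was 50.1, 45.0 and 111 in Het and 0.850, 1.34 and 1.65 in KO (−5.18 ± 0.36, adjusted p = 0.000357). Gykl1 was 20.7, 18.5 and 48.0 in Het and 0.0429, 0.0936 and 0.111 in KO, from 1, 2 and 3 reads (−5.53 ± 0.35, adjusted p = 0.000352). Replicate 3 was again the highest Het library for both, and no libraries overlapped. Pdha2 was 53.8, 40.9 and 75.6 in Het and 11.5, 13.8 and 13.3 in KO (−2.06 ± 0.22, adjusted p = 0.00105), and Eno4 fell from 12.6 ± 5.18 to 2.15 ± 0.493 (−2.25 ± 0.28, 0.00198). Gapdhs was 2.71, 3.73 and 3.38 in Het and 2.23, 1.78 and 1.80 in KO. It fell by 0.62 ± 0.17 (adjusted p = 0.0266), a call that was lost without Het replicate 2 (0.0632) or 3 (0.0517), without KO replicate 2 (0.0901) or 3 (0.0876), with no filter (0.0608) and on the values as deposited (0.0709). Aldoart1 and Aldoart2, at or below 0.0849 and 0.25, were under the filter.

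Of the somatic counterparts in spermatocytes, Ldha fell nearly as far as Ldhc. It was 108, 90.2 and 231 in Het and between 3.50 and 8.27 in KO (−4.60 ± 0.42, adjusted p = 0.000677). Eno3 fell from 53.9 ± 14.5 to 21.2 ± 1.61 (−1.30 ± 0.19, 0.00338) and Eno1 from 10.6 ± 2.18 to 7.13 ± 0.054 (−0.53 ± 0.15, 0.031). Aldoc (0.67 ± 0.15, 0.0142), Pgk1 (0.57 ± 0.13, 0.015) and Gapdh (0.53 ± 0.10, 0.00822) rose. Pgk1 was 2.69, 2.67 and 2.78 in Het and 4.77, 4.11 and 3.94 in KO, and Pdha1 was 4.14, 5.99 and 4.15 in Het and 7.06, 6.06 and 6.44 in KO (0.43 ± 0.16, adjusted p = 0.0781). All KO libraries were above Het for both X-linked genes. Aldoa (−0.21 ± 0.12, 0.229) and Ldhb (−0.47 ± 0.30, 0.261) did not pass, and Eno2 was under the filter. The upstream Aldoa row fell from 12.8 ± 6.39 to 2.51 ± 0.755 (−2.06 ± 0.34, 0.00553). Without Het replicate 1 Pgk1 and Aldoc lost their calls (0.0604 and 0.054), Aldoc also without KO replicate 2 (0.0742) or 3 (0.0626), and Eno1 without KO replicate 2 (0.0546) or 3 (0.0538) and with no filter (0.0791).

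Of the other members in spermatocytes, Fbp1 had the largest difference. It was 103, 89.4 and 226 in Het and 0.422, 0.563 and 1.95 in KO, a 95.9-fold fall (−6.58 ± 0.47, adjusted p = 0.00038), and −7.17 or −6.11 with pseudocounts of 0.1 or 1. The values of Gykl1 with these pseudocounts were −7.20 and −4.67. Pgam2 was 129, 117 and 288 in Het and 4.28, 4.25 and 4.44 in KO (−5.08 ± 0.33, adjusted p = 0.000352). Among the carriers Slc2a3 was 194, 163 and 404 in Het and 4.52, 6.85 and 9.55 in KO (−5.03 ± 0.39, 0.00039). No KO library of these 3 genes reached a Het library. Slc2a5 fell by 4.48 ± 0.37 (0.000461) and Slc16a7 by 2.72 ± 0.28 (0.000923), while Slc16a1 rose by 0.62 ± 0.10 (0.00518). Pfkp (−2.51 ± 0.37, 0.00349), Pfkm (−2.03 ± 0.27, 0.00234), the triose-phosphate isomerase Tpi1 (−1.74 ± 0.21, 0.00173) and Dlat (−1.31 ± 0.20, 0.004) fell. Pgam1 (0.63 ± 0.12, 0.00762), Pkm (0.60 ± 0.10, 0.00558) and Gpi1 (0.55 ± 0.10, 0.00674) rose. Hk1 (−0.68 ± 0.25, 0.0734), Hk2 (0.46 ± 0.16, 0.0628), Slc16a3 (−0.50 ± 0.26, 0.168), Pdhb (−0.37 ± 0.15, 0.103), Bsg (−0.25 ± 0.13, 0.162), Slc2a1 (0.21 ± 0.12, 0.226), Dld (−0.13 ± 0.13, 0.46) and Pfkl (−0.12 ± 0.22, 0.699) did not pass, and Hk3 and Fbp2 were under the filter.

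Of 37 members tested in spermatocytes 7 were higher and 19 lower in KO, against 14.1% and 21.5% of 15901 genes tested, with a median of −0.62 beside 0.01 over all genes. KO lay wholly above Het for 10 members and wholly below for 23, against 25.9% and 28.3% of all genes. With 1 library left out the counts were 5 to 8 higher and 15 to 19 lower. Testis and spermatocyte libraries are separate samples, although spermatocytes are also among the cells of the testis. Of the members 16 were lower in both, 88.9% of the 18 in testis and 84.2% of the 19 in spermatocytes. Pgk2, Gykl1 and Slc16a7 are among the 16 and met the filter only through Het in both sets. The rises shared 5 members (Gpi1, Gapdh, Pgk1, Pkm and Slc16a1), 55.6% and 71.4% of the respective lists. The overlap over all genes was not computed, so these shares describe the members alone. Of the 6 late spermatocyte markers 5 fell in spermatocytes too (summed level 640.2 to 1303 in Het and 179.8 to 215 in KO) and 5 of 8 spermatogonial markers rose (261 to 342 and 453 to 531). Ccna1 and Adam3 were again under 1 in all KO libraries and met the filter only through Het. Sertoli markers summed to 37.8 to 61.3 in Het and 22.2 to 50.3 in KO, with Fshr under 1 in all libraries, and none of 9 tested passed. The part of these cell types in the members' differences was not tested.

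**Figure D3:**
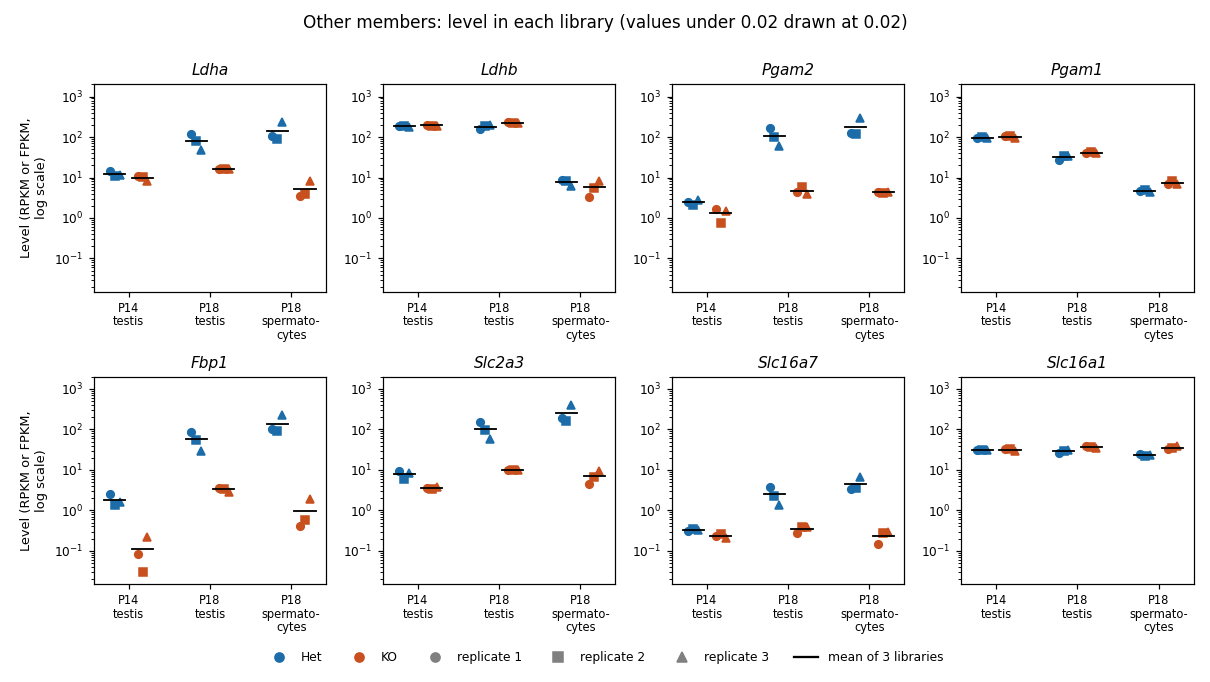
Level in each library (y axis, RPKM or FPKM after rescaling, log scale, values under 0.02 drawn at 0.02) of 4 pairs of members in the 3 sets (x axis), with colours for genotype, symbols for replicate and bars for means of 3 libraries. Ldha, Pgam2, Fbp1, Slc2a3 and Slc16a7 of KO lie under every Het library at P18, while Slc16a1 of KO lies above (35.0 to 37.9 against 26.8 to 30.9 in testis).

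The order of the Het libraries was shared by most of the members that fell at P18. In P18 testis Het replicate 1 had the highest level for 18 of 18 such members and replicate 3 the lowest for 17. In Het spermatocytes replicate 3 was the highest for 18 of 19 and replicate 2 the lowest for 16. The KO libraries had no such order in testis, where replicates 1, 2 and 3 were the highest for 5, 6 and 7 members, and in KO spermatocytes the counts were 4, 4 and 11. The late spermatocyte markers of Het had the same order as these members, with sums of 641, 471 and 354 in the Het testis libraries and 765, 640.2 and 1303 in the Het spermatocytes. Their part in the spread of the members was not tested. The order of the Het libraries over all genes lower in KO was not counted, so the counts describe the members alone. Sertoli sums ran the other way in Het testis (927, 1036 and 1150).

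The germ-cell share of an enzyme step, the level of its germ-cell isozymes over that of all listed isozymes of the step in 1 library, needs no scaling between libraries. For phosphoglycerate kinase, Pgk2 made up 63.6%, 45.6% and 29.5% of the summed level in Het testis at P18 and 1.05%, 0.345% and 0.229% in KO. In Het spermatocytes it made up 77.9%, 79.3% and 91.4%, and in KO 2.02%, 3.76% and 3.13%. By these levels Pgk1 was nearly the whole of the step in KO, whereas Pgk2 was most of it in Het spermatocytes. Of the 50-base words of Pgk1 transcripts 53.88% occur in other annotated genes, against 0.00% for Pgk2. Levels are per length, so a share also rests on the annotated length of each isozyme. The effect of shared words and of lengths on the shares was not tested. For lactate dehydrogenase the share of Ldhc was 84.4%, 84.4% and 84.5% in Het spermatocytes, the same in all 3 libraries although the level of Ldhc itself ran from 529.8 to 1295. In KO spermatocytes it was 69.3%, 62.7% and 64.2%. Ldha and Ldhc both stood lower in KO, and the share moved less than either level. In P18 testis, where Ldhb is high, Ldhc was 70.7%, 60.8% and 50.6% in Het and 16.9%, 17.0% and 16.1% in KO, and at P14 11.1% ± 3.41 in Het and 1.64% ± 0.729 in KO.

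Pdha2 made up 55.8%, 48.9% and 58.9% of the pyruvate dehydrogenase E1 alpha step in the Het libraries at P14, and the means were 54.6% ± 5.15 there, 85.4% ± 3.62 in P18 testis and 91.6% ± 3.93 in spermatocytes. The KO shares were 37.2% ± 7.13, 57.7% ± 1.13 and 66.3% ± 3.84, so that Pdha2 remained above Pdha1 in both P18 sets of KO. Eno4 was a minor enolase throughout, with 3.68% ± 0.406, 9.14% ± 2.31 and 15.9% ± 1.99 in Het and 2.79% ± 0.198, 3.69% ± 0.286 and 6.98% ± 1.45 in KO. Gapdhs was 15.0% ± 2.23 of its step in Het spermatocytes and 6.75% ± 1.28 in KO, and 7.96% ± 0.148 and 6.66% ± 0.639 in P18 testis, while the P14 libraries overlapped (8.76% ± 1.66 and 8.46% ± 0.641, exact p = 0.80). The 2 aldolase copies were 0.412% to 1.23% of their step as group means and overlapped between genotypes in every set (exact p 0.20 to 0.70). The upstream Aldoa row, at 12.8 ± 6.39 in Het and 2.51 ± 0.755 in KO spermatocytes, was not counted in this step. At P14 the Aldoa value rested on another gene model. In each of the 14 comparisons of shares without overlap the exact two-sided permutation test gave p = 0.10, the smallest that 3 libraries against 3 allow, so none of the 18 shares compared could pass 0.05.

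**Figure D4:**
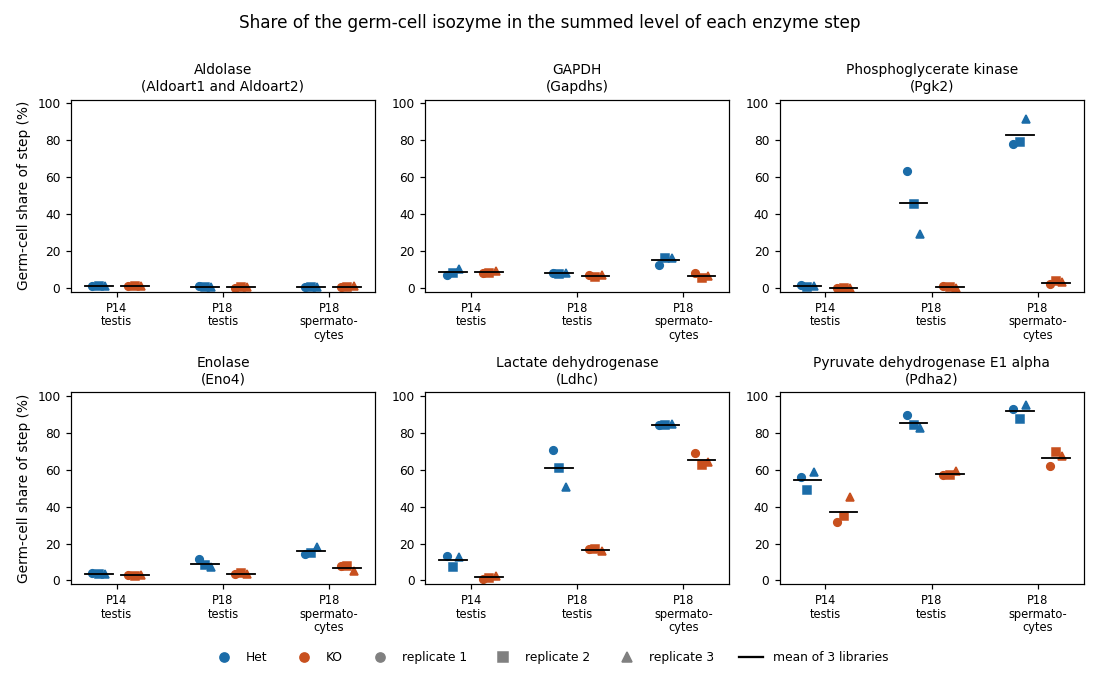
Share of the germ-cell isozyme in the summed level of 6 enzyme steps (y axis, percent) in each library, by set (x axis) and genotype (colour), with symbols for replicates and bars for means of 3 libraries. The Pgk2 and Ldhc shares of KO lie far under Het in P18 testis (46.2% and 60.7% in Het, 0.540% and 16.7% in KO), and the aldolase shares have group means of 0.412% to 1.23%.

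Whether the KO difference itself changed with age was tested for 28 members, and 7 were more negative and none more positive at P18 than at P14, against 5.10% and 0.341% of 15851 genes (5.44% in both directions). These were Pgam2 (−3.54 ± 0.46, adjusted p = 0.00386), Gk2 (−2.71 ± 0.40, 0.00649), Slc2a5 (−2.40 ± 0.44, 0.0157), Slc2a3 (−2.18 ± 0.41, 0.0163), Ldha (−1.85 ± 0.38, 0.0225), Slc16a7 (−1.50 ± 0.38, 0.0486) and Eno4 (−1.17 ± 0.29, 0.0442). Ldhc was not among them (−0.35 ± 0.53, 95% interval −1.53 to 0.83, adjusted p = 0.738). Its KO and Het levels stood 6.45-fold apart at P14, a difference that had not passed, and 8.30-fold at P18. Pdha2 (−0.81 ± 0.30, 0.152), Fbp1 (−1.82 ± 0.47, 0.0531) and Gapdhs (−0.07 ± 0.14, 0.814) did not pass. Of the somatic counterparts besides Ldha none passed, with values of 0.34 (Pgk1), 0.28 (Pdha1), 0.26 (Ldhb), 0.16 (Gapdh), 0.10 (Aldoc), −0.04 (Eno1) and −0.38 (Eno3). The count was 0 with voom on recovered reads (adjusted p 0.0882 to 0.301 for the 7 genes), and leaving out 1 library gave 2 to 10, the lowest without P18 Het replicate 2. Eno4 and Slc16a7 lost their calls in most of these fits. Slc16a7 was under 1 in all P14 libraries and in P18 KO and met the filter only through the P18 Het libraries, so its call here and its rise with age describe a gene that could enter only as high there.

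Between spermatocytes and testis at P18 the KO difference was tested for 37 members, and Tpi1 alone passed, as more negative in spermatocytes, against 0.689% of 19882 genes more negative and 0.0352% more positive (0.724% in both directions). Tpi1 was 24.1, 18.8 and 16.1 in Het testis, 15.9, 14.2 and 16.8 in KO testis, 15.8, 14.3 and 23.6 in Het spermatocytes and 4.15, 4.81 and 5.85 in KO spermatocytes. The genotypes overlapped in testis and were apart in spermatocytes, a difference between the 2 of −1.52 ± 0.26 (adjusted p = 0.0333). That call was lost in 8 of the 12 fits that left out 1 library (adjusted p up to 0.111) and with median-of-ratios scaling (0.076). Ldha (−2.52 ± 0.56, adjusted p = 0.0671), Fbp1 (−2.90 ± 0.65, 0.0672), Ldhc (−2.28 ± 0.54, 0.0773), Eno1 (−0.69 ± 0.16, 0.0801) and Gapdhs (−0.78 ± 0.19, 0.0871) did not pass, nor did Pdha2 (−0.36 ± 0.30, 0.642), Eno4 (−0.86 ± 0.37, 0.32), Gk2 (−1.39 ± 0.50, 0.235) and Gykl1 (−0.74 ± 0.53, 0.568). Pgk2 differed by −0.17 ± 0.62 with a 95% interval of −1.53 to 1.19 (adjusted p = 0.933), a direction that turned positive on the values as deposited (0.04). The somatic Gapdh (0.09), Pgk1 (0.14), Pdha1 (0.08), Aldoc (0.45), Aldoa (−0.51), Eno3 (−0.63) and Ldhb (−0.91) did not pass, with adjusted p from 0.156 to 0.89.

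The neighbouring pathway was read from 50 further genes of glycolysis, pyruvate, glycerol and sugar handling, of which 49 were found. None of 39 tested passed at P14, against 0.164% of all genes. In P18 testis 3 rose and 8 fell of 39, against 6.62% and 17.0% of all genes, and in spermatocytes 6 rose and 9 fell of 36, against 14.1% and 21.5%. The medians were 0.01, 0.17 and 0.04 in the 3 sets beside 0.02, 0.04 and 0.01 over all genes. Ldhal6b, a lactate dehydrogenase-like gene, fell in testis (114 ± 49.5 in Het, 6.70 ± 1.56 in KO; −3.92 ± 0.33, adjusted p = 0.0038) and in spermatocytes (187 ± 94.4 and 3.50 ± 1.08; −5.47 ± 0.36, 0.000352). Sord (sorbitol dehydrogenase, which makes fructose) fell by 1.61 ± 0.31 and 2.43 ± 0.34. The third largest falls were Pdk2, a kinase that inactivates pyruvate dehydrogenase (−0.74 ± 0.20, 0.0428), in testis and Pfkfb4, which sets the level of fructose-2,6-bisphosphate (−1.83 ± 0.30, 0.00553), in spermatocytes. The rises were Mdh1 (malate dehydrogenase, 0.37 ± 0.09), Pdp1 (pyruvate dehydrogenase phosphatase, 0.35 ± 0.10) and Emb (embigin, a carrier chaperone, 0.26 ± 0.07) in testis, and Pck2 (0.71 ± 0.17), Mdh2 (0.66 ± 0.11) and Khk (ketohexokinase, 0.58 ± 0.18) led in spermatocytes. Of 10 pentose phosphate genes 9 were tested in each set: none passed at P14, Taldo1 (transaldolase) rose by 0.30 ± 0.08 and the transketolase copy Tktl2 fell by 0.56 ± 0.07 in P18 testis, and Taldo1 (0.68 ± 0.12) and Pgd (0.44 ± 0.09) rose in spermatocytes.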

How the data were processed

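RNA-seq libraries of P14 testis, P18 testis and P18 spermatocytes from Zfp541 Het and KO mice were compared, 3 per group, grouped by the labels. The authors deposited RPKM for P14 testis and spermatocytes and FPKM for P18 testis, 1 value per gene and library, per the file headers. Per the submitters' processing notes the tools were STAR 2.6.1a, CASAVA 1.9, edgeR 3.28.1 and featureCounts, with build GRCm38; strand use in counting is not given in the sources used here. Multiplying each deposited RPKM or FPKM value by the merged exon length of GENCODE vM21 gave whole reads (within 0.02 read) for 89.56% to 89.73% of values at P14 and 98.59% to 98.74% at P18, which gave the depth. On a 1 kb gene 1 read was worth 0.0473 to 0.108.

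Library factors were trimmed means of M values on the recovered reads (trims of 30% and 5%), computed anew in each fit, so that group means differ slightly between comparisons. Values were tested as log2 (value + 0.5) with limma 3.58.1 (R 4.3.3), trend and robust options on, for genes at 1 or more in at least 3 libraries, with Benjamini-Hochberg adjustment over all genes at a threshold of 0.05. The 3 KO comparisons used the 6 libraries of a set, and the age and fraction comparisons and interactions 12 libraries in 1 fit. Shares of an enzyme step used the deposited values and exact permutation tests (Python 3.11.15, scipy 1.17.1). The scripts were tested on simulated data. Named in each KO comparison were the germ-cell isozymes, their counterparts and every other member past the threshold; in the other comparisons the isozymes, their counterparts and the 6 largest differences of other members; and of the 2 related lists up to 3 rises and 3 falls. Further members are given to account for all 42. Members and lists were chosen with earlier results of these data known.

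The alternatives were pseudocounts of 0.1 and 1, no filter, a minimum value of 5, the values as deposited, median-of-ratios scaling, voom on recovered reads, a replicate block and leaving out each library. Replicate numbers were not treated as pairing samples, since not every same-numbered pair of a set had a correlation over 0.1: the correlations of same-numbered deviations were 0.0819 to 0.1053 at P14, −0.0313 to 0.0266 in P18 testis and 0.0603 to 0.2356 in spermatocytes. Within each group no library was a copy of another, and pairs across groups were not compared in this way. Gene symbols on several rows were left out of the tables of all genes, 95 at P14 and 107 at P18, holding at most 0.300% of a library's values. Aldoa was taken from the P18 row whose values gave whole reads with its own length. The P14 files used other gene models for 10 members.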

Additional observations from a re-analysis of the deposited data

Results flagged for a closer look

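The KO difference of 7 members differed between P14 and P18 testis by the interaction test of limma. On the log2 scale it was more negative at P18 for Pgam2 by −3.54, for Gk2 by −2.71, for Slc2a5 by −2.40, for Slc2a3 by −2.18, for Ldha by −1.85, for Slc16a7 by −1.50 and for Eno4 by −1.17. Between spermatocytes and testis at P18 the KO difference of Tpi1 differed by −1.52 by the same kind of test. The age comparison also spans the 2 units of the files, RPKM at P14 and FPKM at P18, as does the comparison of fractions.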

How the results depend on the processing

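Over 97 calls on named members and 1578 alternative fits of them, no direction turned, and 187 fits lost the call. Depth limits the lowest genes: Pgk2 and Gykl1 rest on 0 to 5 reads per KO library at P18, so the sizes of their falls depend on the pseudocount. With a Het library left out they no longer meet the filter of 3 libraries, which removes them from the counts by construction. Fbp1 at P14, at most 2.48 in any library, leaves the count in the same way with a minimum value of 5 or without a Het library. For the other changes below the cause was not tested.

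The P14 count of 1 lower member was 0 with pseudocounts of 0.1 or 1, no filter, a minimum value of 5 or a replicate block, 6 with voom, and 0 to 2 with 1 library left out. In P18 testis 9 higher members became 5 with no filter, 4 with the block and 0 to 8 with 1 library left out, and 18 lower members 8 to 15. The 1 lower member of genotype by fraction became 0 with no filter, median of ratios or the block, 2 as deposited or with voom, and 0 to 3 with a library left out. For genotype by age the counts were 1 higher as deposited (0 to 1 with a library left out) against 0, and 0 lower with voom (2 to 10 with a library left out) against 7. Spermatocytes against testis in Het had 11 higher members with no filter and 8 as deposited against 17 (7 to 19 with a library left out), and P18 against P14 had 3 lower as deposited against 9 (5 to 9). As deposited, without rescaling, the median log2 of all genes moved by −0.20 in spermatocytes against testis, 0.15 in P18 against P14, 0.16 in the KO difference of spermatocytes and 0.13 in genotype by fraction, and with median of ratios by 0.10 in the first of these.

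Directions turned only for differences near 0 that had not passed: Pgk1 at P14 (−0.006 as deposited and −0.0056 with median of ratios; −0.0617 to 0.0889 with a library left out), Pgk2 by fraction (0.0382 as deposited, 0.18 with voom; −0.54 to 0.34), Gapdhs by age (0.0316 as deposited; −0.18 to 0.0133) and Eno1 by age (0.0632 as deposited; −0.10 to 0.0139). With 1 library left out the ranges crossed 0 for Pdha1 at P14 (−0.0896 to 0.0675) and by fraction (−0.0075 to 0.40), Aldoc at P14 (−0.0181 to 0.12) and by age (−0.0135 to 0.25), Gapdh by fraction (−0.0025 to 0.27) and Pgk2 in spermatocytes against testis (−0.27 to 0.61). The P14 aldolase share differed by 0.0183 percentage points, −0.0423 to 0.0619 with a library left out and −0.0248 as a log2 ratio, and the P14 GAPDH share by −0.29 points, −1.02 to 0.61.

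The replicate number as a block changed the counts named above. Same-numbered libraries lay closest to each other for 6 of 6 libraries at P14 and in spermatocytes and for 2 of 6 in P18 testis, a hint from the data and not from the design. With the block 13 calls on named members missed the threshold in limma: Fbp1 at P14 (adjusted p = 0.0917), Hk1 (0.0919), Aldoa (0.066), Pgk1 (0.072), Pdha1 (0.072), Slc2a1 (0.062) and Slc16a1 (0.067) in P18 testis, Gapdhs in spermatocytes (0.054), Tpi1 by fraction (0.0621), Eno4 (0.0538) and Slc16a7 (0.0785) by age, Eno4 in spermatocytes against testis (0.0683) and Eno1 in P18 against P14 (0.0539).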

Other observations

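Among the further genes of sugar and pyruvate handling, several outside the naming rule passed the limma test in both P18 sets, and they are given here after their values were seen. G6pc3, a ubiquitous glucose-6-phosphatase, fell by 0.54 ± 0.11 in testis (adjusted p = 0.0202) and by 1.81 ± 0.25 in spermatocytes (28.9 ± 11.7 in Het and 7.49 ± 0.428 in KO, adjusted p = 0.00283). Mpc2, a subunit of the mitochondrial pyruvate carrier, fell by 0.60 ± 0.09 (0.00885) and by 0.60 ± 0.15 (0.0236). Galk2 fell by 0.38 ± 0.11 (0.0479) and by 1.07 ± 0.19 (0.00659), and Bpgm, which makes 2,3-bisphosphoglycerate in red cells, by 0.46 ± 0.10 (0.0259) and by 0.80 ± 0.24 (0.037). Pdp1, the phosphatase that activates pyruvate dehydrogenase, rose in both (0.35 ± 0.10, 0.0459, and 0.51 ± 0.13, 0.026). None of 41 of these further genes tested passed for a KO difference that differed between spermatocytes and testis, against 0.724% of all genes, so a larger value in one set is a description.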
